A study of Mus musculus with 8 samples.

Results

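The genes described here encode the enzymes and transporters of glycolysis, the subunits of the hypoxia-inducible factor (HIF) and well known HIF targets outside glycolysis. They were listed by gene symbol, with earlier results of these data known. The list held 42 symbols for 41 genes, since Pkm2 is an older name of Pkm, and 38 of these genes were measured by a probe set assigned to 1 gene alone, out of 19938 genes measured in the same way. Gapdh was present only in probe sets shared with other genes (25 probe sets), and Gapdh, Gpi1 and Eno1 were not analysed here. Thymus lobes came from C57BL/6NTac mice, 8 weeks old: 4 flown for 13 days on a space shuttle, and 4 ground controls, matched in age and sex, housed on the ground in enclosure modules like those of the flight. The labels name no transgene and no drug in either group. RNA of each mouse was hybridised to 1 array, and the values are log2 expression values, on which a difference of 1 is a doubling.

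Glycolysis splits glucose into pyruvate in the cytosol, and lactate dehydrogenase can turn that pyruvate into lactate, which leaves the cell through monocarboxylate transporters. HIF is a pair of an oxygen-regulated subunit (Hif1a) and a constant partner (Arnt). When oxygen is low, the prolyl hydroxylases that mark Hif1a for destruction slow down, and HIF switches on most glycolytic genes together with genes of blood vessel growth, mitophagy and pH control. In the thymus, glycolytic enzymes are used above all by dividing thymocytes, while fat and muscle attached to the lobes also express them.

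Over all probe sets, spaceflight replicates 1 and 3 differed from the remaining arrays. Their log2 values had an interquartile range of 2.43 on both, against 2.68 to 2.95 on the other 6 arrays. Spaceflight replicate 1 also had the least fat and muscle transcript, so results are given with and without these arrays. Thymocyte markers were high on all arrays, with a mean log2 level of 10.08 to 10.36 in spaceflight and 10.36 to 10.43 in ground control, as the tissue label says. Of all genes, 16 passed at a limma adjusted p under 0.05, which is 0.0802% of those tested.

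Transcripts of 8 glycolysis genes were lower in the thymus lobes of flown mice at an unadjusted p under 0.05, but no member passed after adjustment over all genes. They were the hexokinase Hk2, the phosphofructokinases Pfkl and Pfkp, the aldolase Aldoa, triosephosphate isomerase Tpi1, the mutase Pgam1, lactate dehydrogenase A (Ldha) and the lactate transporter Slc16a1. Their differences ran from -0.64 for Hk2 to -0.30 for Slc16a1, and their adjusted p from 0.246 to 0.447 (limma, Benjamini-Hochberg over 19938 genes). No member was higher at that threshold. Over all genes, 7.38% were lower and 3.43% higher at an unadjusted p under 0.05, and bright genes were lower more often: of 6919 genes with a mean log2 value of at least 7, 13.1% were lower and 1.16% higher. The 8 genes all lie among the 29 members at that level. The count moved with the setting. With the level of fat cell markers on each array as a covariate, 0 members were lower and 1 was higher (2.95% and 2.28% of all genes), with Aldoa and Tpi1 at -0.04 each and Hk2 at -0.32; these markers were themselves lower in flown mice. Centring each array on its 75th percentile left 4 lower and 1 higher. It also moved the median difference over all genes from -0.02 to 0.06, and the shares over all genes were not counted there. Without spaceflight replicate 1, 3 were lower and 1 higher (4.94% and 2.14% of all genes). Without ground-control replicate 3, 4 were lower and 0 higher (4.47% and 1.77%). With both of these arrays left out, 2 were lower and 1 higher (3.32% and 1.81%). Without spaceflight replicates 1 and 3 it was 4 lower and 1 higher, where 3.97% of all genes were lower and 3.49% higher. The 4 were Hk2, Pfkl, Ldha and Eno2, a dim gene outside the 8, and the higher member was Bnip3.

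**Figure D1:**
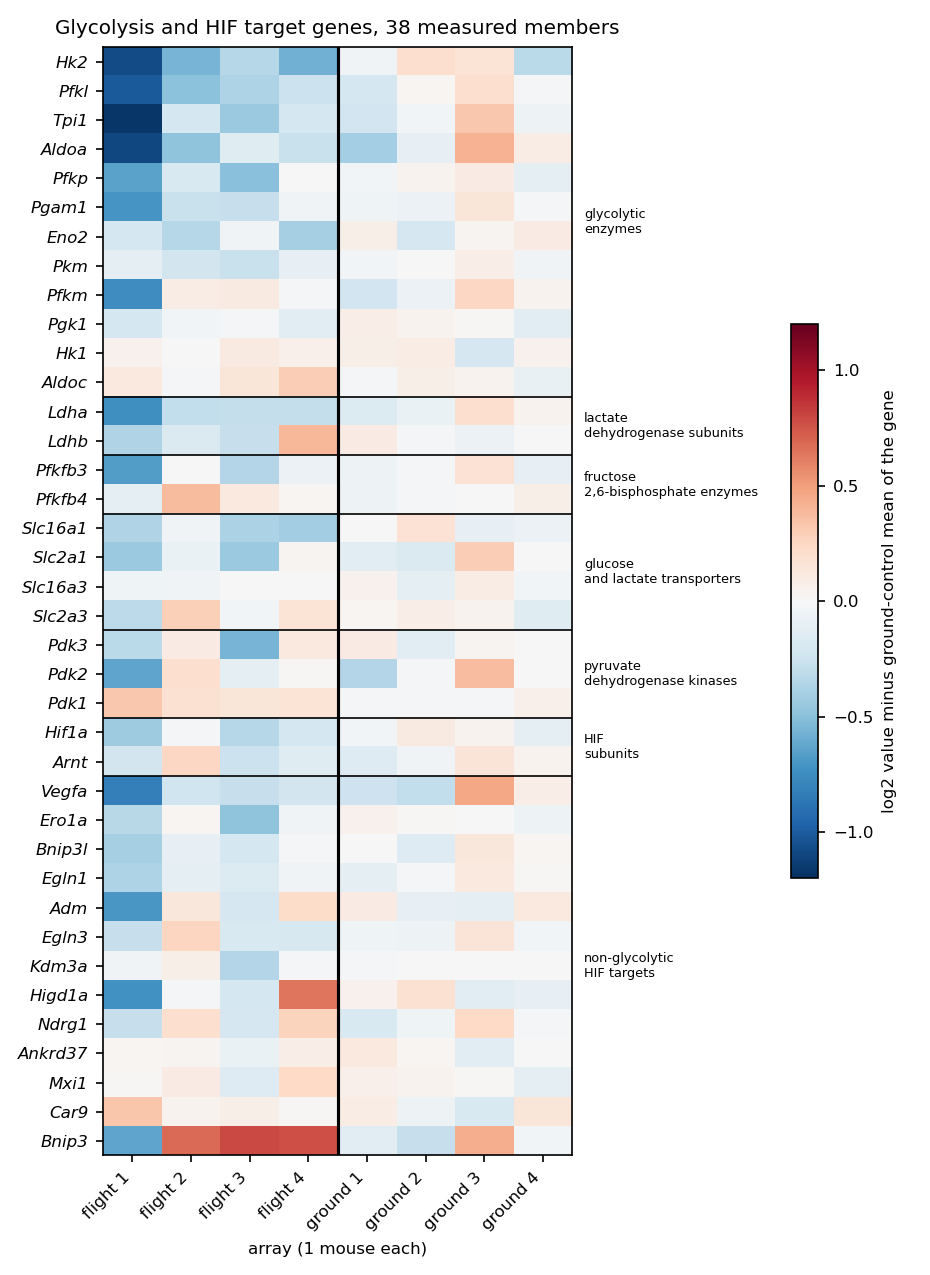
Heat map of the 38 measured members (rows, grouped by role) on the 8 arrays (columns, spaceflight left of the black line, ground control right of it). Colour is the log2 value minus the mean of that gene in ground control: the blue block at the top left holds Hk2, Pfkl, Tpi1 and Aldoa, darkest on spaceflight array 1, and the red cells at the bottom are Bnip3 on spaceflight arrays 2, 3 and 4.

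Hexokinase traps glucose in the cell as its phosphate, and Hk2 is its inducible, HIF-responsive form. Hk2 had log2 values of 6.92, 7.43, 7.65 and 7.41 in spaceflight, against 7.95, 8.19, 8.15 and 7.66 in ground control. The groups did not overlap, although spaceflight replicate 3 and ground-control replicate 4 lay side by side. The mean was 7.35 ± 0.31 in spaceflight and 7.99 ± 0.24 in ground control (SD, n = 4 each), 1.56-fold lower in flown mice, with a difference of -0.64 ± 0.17 (SE; limma adjusted p = 0.246). Hk2 kept an unadjusted p under 0.05 in each of the 8 fits that left out a single array and was at -0.57 without spaceflight replicates 1 and 3. Hk1, the housekeeping hexokinase, was at 12.44 ± 0.04 in spaceflight and 12.38 ± 0.14 in ground control, a difference of 0.05 with a 95% interval from -0.18 to 0.29. That probe set reads far brighter than the other Hk1 probe set (12.41 against 7.92 on average), and 16 further probe sets share Hk1 with other genes, so its source is uncertain. The dimmer probe set differed by -0.0046 between the groups.

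Phosphofructokinase commits sugar to glycolysis and works as a tetramer of liver (Pfkl), platelet (Pfkp) and muscle (Pfkm) subunits. Pfkl had 7.47, 7.98, 8.10 and 8.21 in spaceflight, against 8.26, 8.49, 8.67 and 8.46 in ground control, again with no overlap. Its difference was -0.53 ± 0.16 (SE; limma adjusted p = 0.318), and -0.37 without spaceflight replicates 1 and 3. Pfkp had 8.07, 8.53, 8.21 and 8.71 in spaceflight and 8.68, 8.76, 8.81 and 8.61 in ground control. Here the groups overlapped, the 2 lowest values were spaceflight replicates 1 and 3, and the difference of -0.33 ± 0.14 shrank to -0.09 without them. Pfkm was at 7.42 on spaceflight array 1 and between 7.94 and 8.42 on all other arrays, with a group difference of -0.14 (95% interval from -0.55 to 0.26).

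Aldolase and triosephosphate isomerase form the middle of the pathway, where the hexose is cut into triose phosphates. Aldoa had 10.21, 10.82, 11.16 and 11.03 in spaceflight and 10.89, 11.21, 11.72 and 11.39 in ground control. Tpi1 had 7.87, 8.82, 8.59 and 8.83 in spaceflight, against 8.81, 9.003, 9.35 and 8.97 in ground control. For both genes the lowest array was spaceflight replicate 1, the highest was ground-control replicate 3, and the other 6 arrays overlapped. The differences were -0.50 ± 0.22 for Aldoa and -0.51 ± 0.20 for Tpi1 (SE; limma adjusted p = 0.447 and 0.417), and without spaceflight replicates 1 and 3 they were -0.38 and -0.21. Aldoc, the brain-type aldolase, was dim and differed by 0.13 (95% interval from -0.10 to 0.37).

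The later part of glycolysis harvests ATP and ends at pyruvate. Pgam1, which moves the phosphate of phosphoglycerate, had 8.18, 8.62, 8.61 and 8.84 in spaceflight and 8.83, 8.81, 9.03 and 8.87 in ground control, so that only spaceflight replicate 4 reached the ground-control range. Its difference was -0.32 ± 0.14 (limma adjusted p = 0.447). It was at -0.15 without spaceflight replicates 1 and 3. Pgk1, the first ATP-making enzyme and a classic HIF target, had 10.44, 10.63, 10.64 and 10.52 in spaceflight and 10.73, 10.70, 10.67 and 10.52 in ground control, a difference of -0.10 with a 95% interval from -0.33 to 0.13. Pkm, pyruvate kinase, was lower on every spaceflight array (9.58 to 9.74) than on any ground-control array (9.80 to 9.92), although the difference was small, -0.18 ± 0.10 (limma adjusted p = 0.509). Its second, dimmer probe set differed by -0.29 with groups fully apart (unadjusted p = 0.0182, limma over all probe sets). Pkm is not among the 8 because each gene was read from its brighter probe set. Eno2, the neuronal enolase, was dim and differed by -0.25 ± 0.12, and by -0.37 without spaceflight replicates 1 and 3. In all, the groups were fully apart and lower in spaceflight for 4 of the 38 members (Hk2, Pfkl, Pkm and Ldha), and 4.28% of all genes were lower in that way. Among genes with a mean log2 value of at least 7, where these 4 lie, 7.46% were lower and 0.621% higher with groups fully apart.

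**Figure D2:**
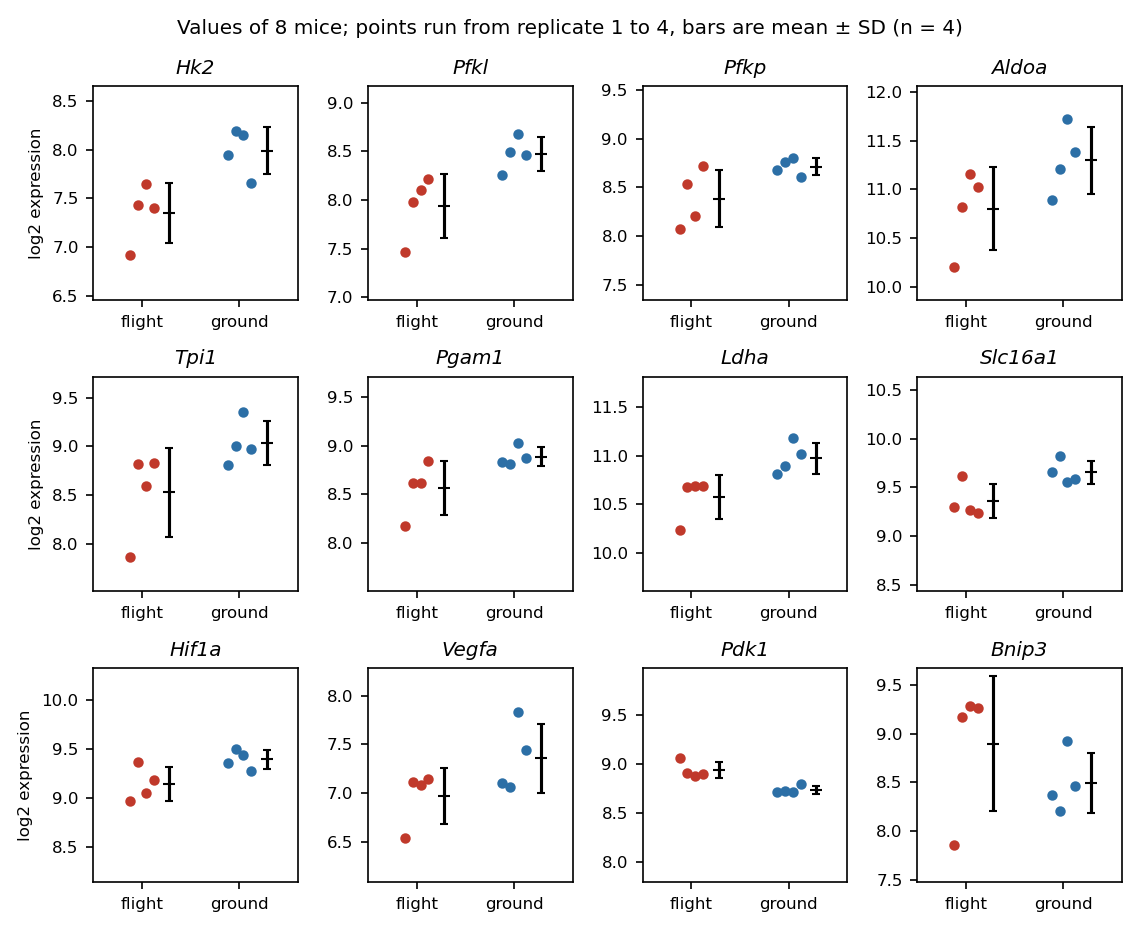
Log2 expression of 12 members in each mouse, flight left and ground right in each panel, with mean ± SD (n = 4) beside the points. All panels span the same number of log2 units, with different origins: Hk2, Pfkl and Ldha separate the groups downwards, Pdk1 separates them upwards by a small step, and Bnip3 has 3 high flight arrays and 1 low one.

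Lactate dehydrogenase makes lactate chiefly through its A subunit, while the B subunit favours the reverse reaction. Ldha had 10.23, 10.68, 10.69 and 10.69 in spaceflight, against 10.81, 10.89, 11.18 and 11.02 in ground control, and the groups did not overlap. The mean was 10.57 ± 0.23 in spaceflight and 10.97 ± 0.16 in ground control (SD, n = 4 each), 1.32-fold lower in flown mice (difference -0.40 ± 0.14 SE, limma adjusted p = 0.353). Without spaceflight replicates 1 and 3 the difference was -0.29. Ldhb differed by -0.10 (95% interval from -0.44 to 0.23) and was highest of all on spaceflight array 4, at 9.31. Slc16a1, the widespread lactate transporter, had 9.29, 9.62, 9.27 and 9.24 in spaceflight and 9.65, 9.82, 9.55 and 9.59 in ground control. Only spaceflight replicate 2 lay within the ground-control range, and the difference was -0.30 ± 0.12 (limma adjusted p = 0.418). Slc16a3, the lactate exporter of highly glycolytic cells, differed by -0.02 (95% interval from -0.24 to 0.20).

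The upstream sequences of 5 members are printed because the genes are textbook HIF targets or, for Pgam1, a glycolytic gene among the 8 above, and yet they differ in how their transcripts stood in flown mice: Ldha, Hk2 and Pgam1 lower, Pgk1 near 0 and Bnip3 higher on 3 of 4 arrays. Each is the 250 bases before the first start site listed for the gene, from RefSeq on GRCm38.p6, read 5′ to 3′ on the gene's strand. Capitals mark every ACGTG or GCGTG, the core letters of the hypoxia response element, on either strand, with overlapping matches joined.
Ldha (chr7:46845554-46845803, plus strand): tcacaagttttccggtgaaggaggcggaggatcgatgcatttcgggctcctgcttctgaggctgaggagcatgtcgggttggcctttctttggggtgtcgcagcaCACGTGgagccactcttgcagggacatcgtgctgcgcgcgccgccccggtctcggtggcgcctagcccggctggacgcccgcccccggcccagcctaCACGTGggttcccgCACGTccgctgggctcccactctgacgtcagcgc
Hk2 (chr6:82774455-82774704, minus strand): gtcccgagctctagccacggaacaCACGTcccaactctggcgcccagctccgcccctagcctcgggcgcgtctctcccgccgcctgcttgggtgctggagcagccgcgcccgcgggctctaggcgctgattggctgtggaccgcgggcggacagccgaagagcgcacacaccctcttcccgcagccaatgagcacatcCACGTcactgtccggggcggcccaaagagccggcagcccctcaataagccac
Pgam1 (chr19:41911621-41911870, plus strand): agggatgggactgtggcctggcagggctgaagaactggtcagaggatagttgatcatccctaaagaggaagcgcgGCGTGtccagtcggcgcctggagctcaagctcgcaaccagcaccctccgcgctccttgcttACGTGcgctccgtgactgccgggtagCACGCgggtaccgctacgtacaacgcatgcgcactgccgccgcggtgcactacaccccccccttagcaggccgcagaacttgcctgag
Pgk1 (chrX:106186850-106187099, plus strand): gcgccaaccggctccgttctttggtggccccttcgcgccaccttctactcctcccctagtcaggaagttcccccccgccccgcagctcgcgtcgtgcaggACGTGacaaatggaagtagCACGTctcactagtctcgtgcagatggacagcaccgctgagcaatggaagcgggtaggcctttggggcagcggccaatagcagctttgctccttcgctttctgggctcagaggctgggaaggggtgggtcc
Bnip3 (chr7:138909507-138909756, minus strand): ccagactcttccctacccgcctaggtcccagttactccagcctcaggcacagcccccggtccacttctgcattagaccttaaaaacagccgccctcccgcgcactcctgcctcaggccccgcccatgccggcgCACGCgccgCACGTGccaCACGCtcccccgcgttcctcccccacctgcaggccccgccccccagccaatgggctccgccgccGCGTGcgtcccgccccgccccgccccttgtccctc

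The 5 windows held between 2 and 4 stretches of these letters. None of the 5 genes passed after adjustment over all genes with all arrays, and the part of these letters in the differences was not tested. Promoter windows were found for 35 of the 38 members, 52 windows in all since some genes have several start sites. At least 1 match stood in 40 of the 52 windows (76.9%), against 38.6% of all 32851 windows of the same length. Base composition was not matched in this count, and the letters hold a CpG. Glycolytic enzymes had a match in 14 of 20 windows and non-glycolytic HIF targets in 12 of 16. The windows of Tpi1 and Eno2 held none.

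The remaining glycolytic regulators showed smaller differences. Pfkfb3 and Pfkfb4 are bifunctional enzymes that set the level of the sugar phosphate that activates phosphofructokinase. Pfkfb3 differed by -0.27 ± 0.15 and Pfkfb4 by 0.10 ± 0.12 (SE; limma adjusted p = 0.500 and 0.735). The glucose transporters Slc2a1 and Slc2a3 differed by -0.24 ± 0.15 and 0.02 ± 0.14. Pyruvate dehydrogenase kinases switch off pyruvate dehydrogenase inside the mitochondrion. Pdk1, their HIF-induced member, had 9.06, 8.91, 8.88 and 8.90 in spaceflight, against 8.72, 8.72, 8.71 and 8.79 in ground control. It was higher on every spaceflight array by a small step, 0.20 ± 0.10 (limma adjusted p = 0.471), and was the 1 member of 38 whose groups were apart in that direction, where 1.73% of all genes were. Pdk2 and Pdk3 differed by -0.13 and -0.17, and both were above 0 without spaceflight replicates 1 and 3 (0.11 each).

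Where the arrays measured different genes for a single step, the difference between flown and control mice was compared within the arrays for 8 pairs, a comparison chosen after the values were seen. Hk2 was 0.69 ± 0.22 further below its ground-control level than Hk1 (SE; exact two-sided permutation p = 0.0286, the smallest that 4 arrays against 4 allow). Here Hk1 was read from its brighter probe set, whose source is uncertain. Pfkl was 0.39 ± 0.09 further below than Pfkm (exact permutation p = 0.0286). Aldoa against Aldoc gave 0.63 ± 0.26 and Pfkfb3 against Pfkfb4 gave 0.38 ± 0.12 (exact permutation p = 0.0571 for both). Aldoc and Pfkfb4 were dim, with mean log2 values of 5.91 and 6.24. The other 4 pairs, with Ldha against Ldhb at 0.30 ± 0.19, had an exact permutation p between 0.114 and 0.371. After Benjamini-Hochberg adjustment over the 8 pairs the smallest exact permutation p was 0.114, so no pair of enzymes was shown to differ. With 4 arrays against 4, a pair could pass this adjustment only if several other pairs also reached the smallest p. The comparison therefore cannot decide whether any pair differed.

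HIF itself is controlled mainly at the protein level, which arrays do not measure. Hif1a transcript had 8.96, 9.37, 9.05 and 9.18 in spaceflight and 9.36, 9.50, 9.44 and 9.28 in ground control, with spaceflight replicate 2 inside the ground-control range. The difference was -0.25 ± 0.12 (limma adjusted p = 0.463), and -0.12 without spaceflight replicates 1 and 3. Arnt had 8.46, 8.93, 8.42 and 8.54 in spaceflight and 8.53, 8.64, 8.84 and 8.73 in ground control, a difference of -0.09 ± 0.13. The oxygen-sensing hydroxylases Egln1 and Egln3, themselves HIF targets, differed by -0.18 ± 0.11 and -0.10 ± 0.13.

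Among the 13 non-glycolytic HIF targets none was lower or higher at an unadjusted p under 0.05, where 7.38% of all genes were lower and 3.43% higher. Vegfa, the growth factor of blood vessels, had 6.54, 7.11, 7.08 and 7.14 in spaceflight and 7.11, 7.06, 7.83 and 7.44 in ground control. Its difference of -0.39 ± 0.19 (limma adjusted p = 0.469) came with spaceflight replicate 1 as the lowest array and ground-control replicate 3 as the highest, and the other 6 arrays overlapped. Ero1a, an oxidase of the endoplasmic reticulum, differed by -0.21 ± 0.13 and Bnip3l, a mitophagy receptor, by -0.18 ± 0.12. The vasodilator peptide Adm (-0.14), the histone demethylase Kdm3a (-0.08), the mitochondrial protein Higd1a (-0.08) and the stress gene Ndrg1 (-0.001) also lay at or below 0. The ankyrin-repeat gene Ankrd37 (0.01), the Myc antagonist Mxi1 (0.05) and the carbonic anhydrase Car9 (0.12) lay above it. Second probe sets differed by -0.07 for Bnip3l and by -0.22 for Higd1a. Under at least 1 other setting the sign changed for Adm, Kdm3a, Higd1a, Ndrg1, Ankrd37, Mxi1, Car9 and Egln3, while that of Vegfa, Ero1a, Bnip3l and Egln1 did not.

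Bnip3, a mitochondrial outer membrane receptor for mitophagy and a standard HIF target, stood apart from the rest. It had 7.86, 9.18, 9.29 and 9.27 in spaceflight, against 8.37, 8.21, 8.93 and 8.46 in ground control. Spaceflight replicates 2, 3 and 4 were higher than every ground-control array, and spaceflight replicate 1 was lower than all of them. With all arrays the difference was 0.41 ± 0.29 (limma adjusted p = 0.571). Without spaceflight replicate 1 it was 0.75 (limma adjusted p = 0.158). Without spaceflight replicate 1 and ground-control replicate 3 it was 0.90 and passed (limma adjusted p = 0.0419), a setting added after the values were seen. Those arrays held the lowest spaceflight and the highest ground-control value of Bnip3. Leaving them out had to widen its difference, so the pass adds no support. The second Bnip3 probe set gave 0.35 with all arrays, against 0.41 for the first. Over the 21 other settings Bnip3 was above 0 in 21, between 0.28 and 1.09, with an unadjusted p under 0.05 in 6. The settings share the same arrays, and only 1 of the 8 fits without a single array was among the 6. The value of 1.09 came with the fat covariate, also added after the values were seen.

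**Figure D3:**
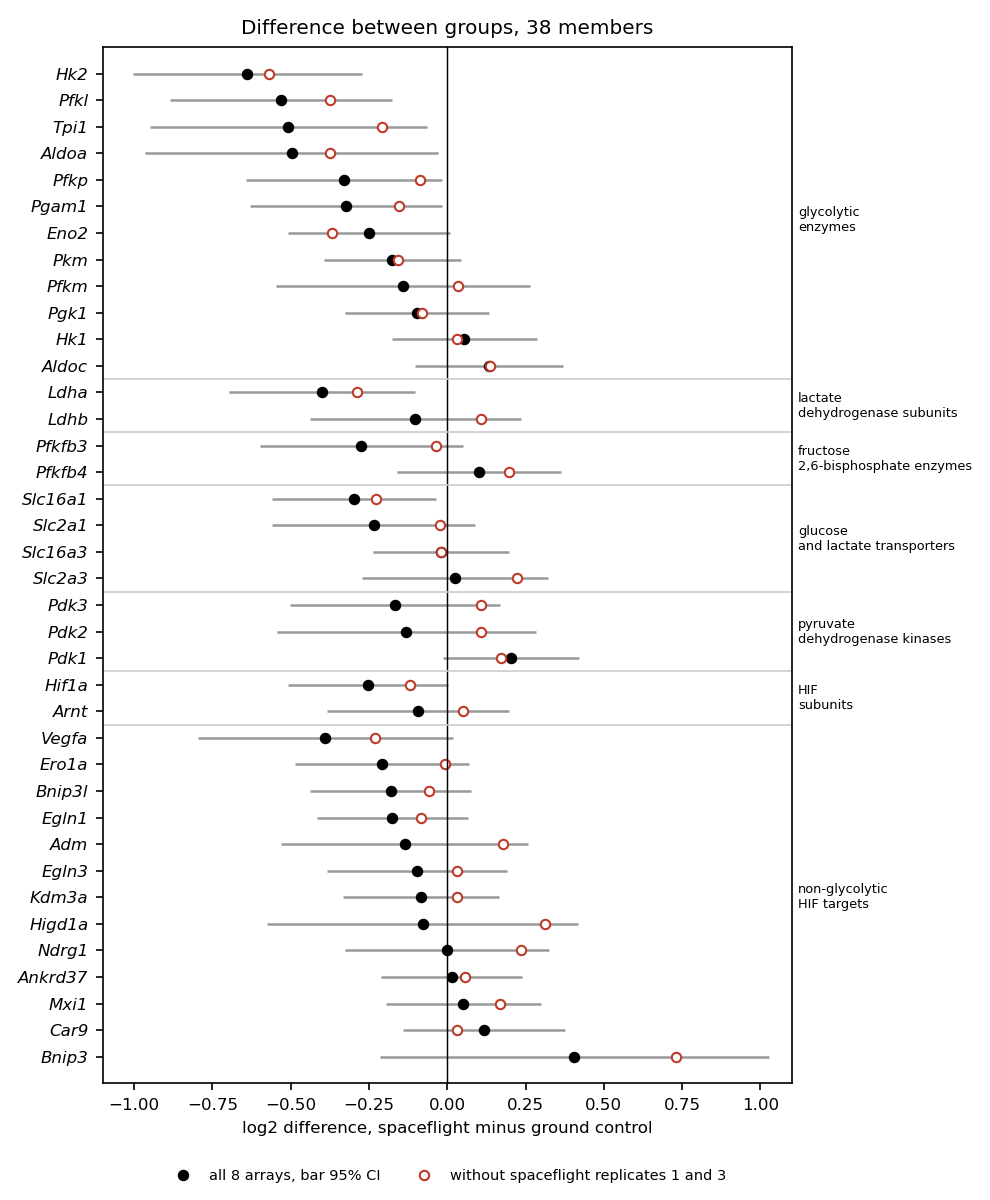
Log2 difference, spaceflight minus ground control, of each of the 38 members by role. Black points are all 8 arrays with a 95% interval from limma, and open red points leave out spaceflight replicates 1 and 3: most open points lie nearer 0 or above it, Hk2 keeps -0.57, Pfkl -0.37 and Ldha -0.29, and Bnip3 moves to 0.73.

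Glycolytic enzymes lay further below their ground-control level than non-glycolytic HIF targets did, by the medians of the lists. The median difference was -0.29 over 12 glycolytic enzymes, of which 10 had a lower mean in spaceflight, and -0.08 over 13 non-glycolytic HIF targets, of which 9 had. Over all genes the median was -0.02, and over the 6919 genes of a mean log2 value of at least 7 it was -0.13. At that level 10 glycolytic enzymes had a median of -0.33 and 8 targets one of -0.14. On single arrays the median deviation of glycolytic enzymes from their ground-control means was -0.67, -0.22, -0.20 and -0.11 in spaceflight, against -0.04, 0.01, 0.12 and -0.03 in ground control. For the targets it was -0.34, 0.04, -0.20 and 0.02 in spaceflight, against -0.01, -0.05, 0.01 and -0.01 in ground control. In spaceflight, enzymes were thus below 0 on all 4 arrays, and the targets on replicates 1 and 3 but not on 2 and 4. A list of 29 further HIF targets was below 0 on all 4 (-0.45, -0.02, -0.22 and -0.11). Further genes of glycolysis and gluconeogenesis were above 0 on replicate 3 (0.02) and below it on the others. The gap between the median of the 12 enzymes and that of the 13 targets was -0.20 with all arrays. It ran from -0.26 to -0.14 when a single array was left out. Without spaceflight replicates 1 and 3 it was -0.19, with -0.16 for the enzymes and 0.03 for the targets. Over further genes of the same kinds, taken at all levels, that order was not seen. There, 29 further HIF targets had a median difference of -0.22 and 16 further genes of glycolysis and gluconeogenesis one of -0.10. Both of these further lists hold Pfkfb2 and dim genes, such as Pgk2 (mean log2 value 3.81) and Epo (4.27). They were not compared at a mean log2 value of at least 7, so their order at a like level was not examined. The lists were compared as a description, with no test, and their genes share the same 8 arrays.

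**Figure D4:**
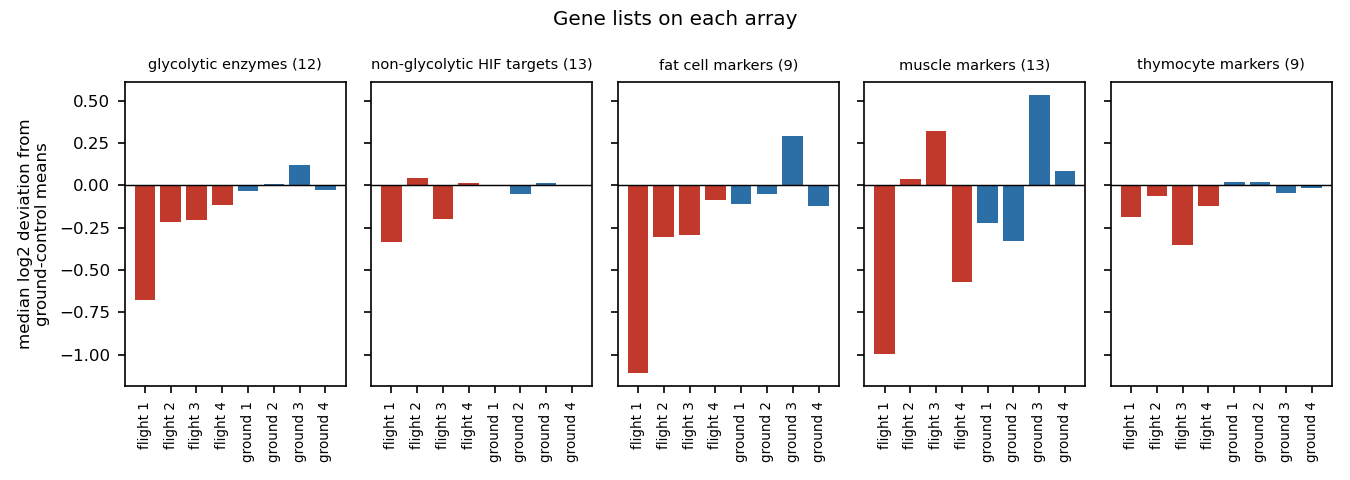
Bars give, for each array, the median over a list's genes of the log2 deviation from the ground-control mean of each gene (spaceflight in red on the left, ground control in blue on the right). Glycolytic enzymes, fat cell markers and thymocyte markers were below 0 on all 4 flight arrays. Muscle markers ran from -0.995 on flight array 1 to 0.53 on ground array 3.

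Markers of fat cells, thymic epithelium and thymocytes, like the glycolytic enzymes, had medians below their ground-control level on all 4 spaceflight arrays. The median over all genes did too, at -0.02, -0.01, -0.06 and -0.01. Thymocyte markers were at -0.19, -0.06, -0.35 and -0.12 in spaceflight. Fat cell markers on spaceflight replicate 4 (-0.09) lay above those on ground-control replicates 1 and 4 (-0.11 and -0.12). Muscle markers were not below 0 on all 4 spaceflight arrays. Their median deviation was -0.995, 0.04, 0.32 and -0.57 in spaceflight, against -0.22, -0.33, 0.53 and 0.09 in ground control. The parts of thymic epithelium and of thymocytes in the result were not tested. Over all genes, 10675 of 19938 means were lower in spaceflight, and 7.38% were lower at an unadjusted p under 0.05 (13.1% at a mean log2 value of at least 7). Markers of fat cells had a median difference of -0.60, with 9 of 9 means lower in spaceflight and 4 at an unadjusted p under 0.05, and markers of muscle had a median of -0.39, with 12 of 13 means lower and 1 at that threshold. Summed up as mean log2 levels, fat markers lay between 7.74 and 8.69 in spaceflight and between 8.75 and 9.24 in ground control, and muscle markers between 6.07 and 7.76 in spaceflight and between 7.11 and 7.91 in ground control. The muscle actin Acta1 was at 6.64 on spaceflight array 1 and between 9.17 and 10.45 on the other 7. Thymic epithelium markers had a median difference of -0.47, with 8 of 8 means lower and 5 at that threshold, and mean log2 levels between 8.07 and 8.40 in spaceflight and between 8.63 and 8.71 in ground control. With the muscle level of each array as a covariate, 4 members were lower and 1 higher at an unadjusted p under 0.05 (5.01% and 2.20% of all genes), and the median of the glycolytic enzymes was -0.22. With the fat level as a covariate, the median of the glycolytic enzymes was -0.05 and that of the non-glycolytic HIF targets -0.03. Since fat markers were themselves lower in flown mice, this covariate overlaps with the groups, and flight and fat content cannot be told apart in it. In these bulk lobes, fewer cells of a type and less RNA per cell cannot be told apart either. Dividing cell markers had a median difference of 0.09, with 3 of 8 means lower and 5 higher, and 1 lower at an unadjusted p under 0.05. Their differences ran from -0.40 for Mcm5 to 0.32 for Mki67. On single spaceflight arrays their median deviation ran from -0.36 to 0.40. The part of dividing cells in the result was not tested. Thymocyte markers were at a median of -0.15, with 9 of 9 means lower and 2 at an unadjusted p under 0.05. Macrophage and dendritic cell markers were at -0.14, endothelial markers at -0.16, neutrophil markers at -0.09 and red cell markers at -0.07.

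Other genes of the same pathways were lower in part. Over all genes, 7.38% were lower at an unadjusted p under 0.05 and 4.28% lower with groups fully apart (13.1% and 7.46% at a mean log2 value of at least 7). In glycogen metabolism 2 of 9 were lower at an unadjusted p under 0.05, both with groups fully apart, and the median difference of the 9 was -0.27. Ppp1r3c, the subunit that brings a phosphatase to glycogen, had 5.67, 5.75, 6.14 and 5.95 in spaceflight, against 6.40, 6.81, 7.12 and 6.57 in ground control (difference -0.85 ± 0.16, limma adjusted p = 0.0942). The glycogen phosphorylase Pygl had 7.15, 7.92, 8.25 and 8.02 in spaceflight, against 8.42, 8.63, 8.74 and 8.55 in ground control (-0.75 ± 0.20, limma adjusted p = 0.256). Of 10 genes for the entry of pyruvate into mitochondria, 2 were lower: pyruvate carboxylase Pcx (-0.84 ± 0.22) and the pyruvate carrier subunit Mpc1 (-0.50 ± 0.18). Of 16 further genes of glycolysis and gluconeogenesis, 3 were lower: the glycerol phosphate dehydrogenases Gpd1 (-0.64) and Gpd2 (-0.51) and the mitochondrial phosphatase Pgam5 (-0.28). Gpd1 and Pcx are known to be abundant in fat cells.

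Of 29 further HIF targets, 6 were lower and 0 higher at an unadjusted p under 0.05, with a median difference of -0.22. The shares over all genes were 7.38% lower and 3.43% higher (13.1% and 1.16% at a mean log2 value of at least 7). P4ha1, a collagen prolyl hydroxylase, had 7.18, 8.05, 7.44 and 7.86 in spaceflight, against 8.73, 8.45, 8.63 and 8.44 in ground control (-0.93 ± 0.18, limma adjusted p = 0.0902). Slc2a4, the insulin-responsive glucose transporter of fat and muscle, differed by -0.61 ± 0.19, the hydroxylase P4ha2 by -0.30 ± 0.11 and the clock-linked repressor Bhlhe41 by -0.50 ± 0.19. Of 10 further HIF subunits and oxygen-sensing genes, the ubiquitin ligase Siah2 was lower (-0.34 ± 0.12) and the subunit Hif3a higher (0.31 ± 0.12), at a dim level of 4.96 to 5.32 in spaceflight and 4.68 to 4.89 in ground control. No gene of these 5 lists passed over all genes.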

How the data were processed

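Thymus RNA of 4 spaceflight and 4 ground-control mice was measured on Affymetrix arrays, 1 per mouse, from 6 µg of total RNA per the labels' protocols. The deposited values are log2 expression values per probe set, and the submitters' processing notes name RMA and limma. Their versions, the genome build and any filter are not stated in the labels. Of 35557 probe sets, the lowest unbroken run of identifiers (6614, none annotated) was left out. Gene names came from the platform annotation, brought up to date through Entrez identifiers and RefSeq GRCm38.p6 (21698 of 21789 single-gene probe sets matched). A gene was read from its single-gene probe set of highest mean. Of the members, 30 had 1 such probe set and 8 several. Glycolytic genes have many processed copies in the genome, and probe sets of Pgk1 and Pgam1 held identical values, so signal from copies cannot be separated.

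Spaceflight minus ground control was tested for 19938 genes with limma 3.58.1 in R 4.3.3 (lmFit and eBayes, two-sided, Benjamini-Hochberg, threshold 0.05). The procedure was tested on simulated data. The number of arrays limits the precision. Members and lists were chosen with earlier results of these data known. All measured members may be named. Values of every array are given for the 8 members at an unadjusted p under 0.05 and for Hif1a, Arnt, Pgk1 and Vegfa. Pdk1 and Bnip3 were added after their values were seen. Other lists contribute up to 4 genes of smallest p. Alternatives covered centring, quantile normalization, array weights, variance trend, a filter on low values, probe set choice, a replicate block, single arrays and marker covariates.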

Additional observations from a re-analysis of the deposited data

Results flagged for a closer look

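Within the groups of 4, a single array lay far from the other 3 in 7 of the 76 member-by-group sets (gap over range above Dixon's 95% critical value). Chance flags about 1 in 20 sets, and the sets share the same arrays. Spaceflight array 1 was the low value in 4 of them: Bnip3 at 7.86, Ldha at 10.23, Vegfa at 6.54 and Pfkm at 7.42. Spaceflight array 2 was the high value for Slc16a1, at 9.62. Ground-control array 3 was high for Egln3, at 7.72, and low for Hk1, at 12.18.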

How the results depend on the processing

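No member passed at an adjusted p under 0.05 with all arrays, under the other processing alternatives or in any of the 8 fits without a single array (0 in each). Bnip3 alone passed in 2 of 3 settings added after seeing the data: 1 member without spaceflight replicate 1 and ground-control replicate 3, and 1 with the fat covariate (1.09, limma adjusted p = 0.0277). The former setting leaves out the lowest spaceflight and the highest ground-control value of Bnip3. In the latter, the fat level was lowest on spaceflight replicate 1 (7.74, against 8.65 to 9.24 on the other arrays). That array also held the lowest Bnip3 value, and the fat level overlaps with the groups. Neither pass therefore adds separate support for Bnip3. The count of members lower at an unadjusted p under 0.05, 8 with all arrays, was 4 with centring on the 75th percentile, 5 with array weights, 4 without spaceflight replicates 1 and 3, 2 without spaceflight replicate 1 and ground-control replicate 3, 4 with the muscle covariate and 0 with the fat covariate, and ran from 3 to 9 without a single array. The members median difference was 0.0105 without spaceflight replicates 1 and 3, against -0.14 with all arrays, and from -0.21 to -0.08 without a single array. The gap, the median of glycolytic enzymes minus non-glycolytic HIF targets, was -0.0261 with the fat covariate, against -0.20 with all arrays. The count over all genes, 16, was 25 with a filter at a mean of 6, 10 when all probe sets were fitted, 9 without spaceflight replicate 1 and ground-control replicate 3, 7 with the muscle covariate, and 6 to 15 without a single array. Hk2 and Pfkl kept an unadjusted p under 0.05 in 20 of 21 alternatives, Ldha in 19, Tpi1 in 14, Slc16a1 in 12, Aldoa in 9, Pfkp in 8 and Pgam1 in 7, and the sign of none of these 8 changed. Another 16 members changed sign at least once. The cause of these shifts was not tested. Same-numbered mice did not deviate together (correlations from -0.30 to 0.24, and no array correlated best with its own number), so the numbers were not taken as pairs. The replicate block gave 20 genes and 8 lower members. Shares of all genes at an unadjusted p under 0.05 were not counted for the replicate block, centring, array weights and most single-array fits. The member counts of those settings therefore have no background. With 4 arrays a group, small differences were not detectable.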
